A study of Gallus gallus with 6 samples.

Results

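Collagen genes in the chicken ileum are described here. Members were all rows of the deposited gene table whose symbol is COL, a number, A and a number, with case ignored. That gave 25 of 17623 rows, carrying 24 symbols, because COL25A1 has both an Ensembl gene and an assembled locus. The RNA came from ileum, where the small intestine ends, and the birds were Taiping chickens, all male and 2 months old. In the MP group, 3 libraries came from birds given 2 mL of probiotic per litre of drinking water. In the CT group, 3 libraries came from birds with 0 mL. Both groups ate the same basal diet of corn and soybean. The labels name neither the microbes in the probiotic nor the position along the ileum, and they do not say whether a library is 1 bird or a pool.

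Collagens are proteins of the extracellular matrix, most of them secreted and some transmembrane, built from chains wound into a triple helix. Fibrillar collagens form the rope-like fibres of the submucosa and muscle coat, COL4 chains form the sheet-like network of basement membranes under epithelium and around vessels and muscle cells, and COL6 chains form beaded filaments close to cells. In the gut wall, fibroblasts and smooth muscle cells are the main makers of fibrillar and COL6 chains. In a whole piece of ileum, fewer cells of such a type and less RNA per cell cannot be told apart.

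The file holds 1 value per gene and group, the authors' mean of 3 libraries. The mean counts summed to 15928865 per library in MP and 17150865 in CT. No spread between birds can be had from such means, so no difference below has a replicate check and none has a p-value. Levels are in FPKM (fragments scaled to transcript length and to library size). Differences are log2(FPKM + 1) in MP minus the same in CT; adding 1 shrinks those of genes at low FPKM. Where a count ratio is given, it is MP over CT after scaling to depth, with an exact 95% interval that covers counting error only.

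Summed by class, collagen genes that carry a symbol were less abundant in the MP mean than in the CT mean in every class. Of 5 measured chains named by description only, 3 were lower and 2 higher, with a median of -0.02 (see other observations). Of the 25 rows, 21 had FPKM of at least 1 in MP or CT, and 20 of these 21 were lower in MP. Among all 12828 genes at that minimum, 62.2% were lower. COL8A1 and COL14A1 reached the minimum through CT alone, so they could only count as lower. The median difference of the 21 genes was -0.39 in log2 (quartiles -0.51 and -0.26), against -0.07 over all genes (quartiles -0.21 and 0.10). The steps were small. At 1.5-fold or more, 2 of 21 were lower (COL17A1 and COL6A2), against 1.97% of all genes, and 0 of 21 were higher, against 2.87% of all genes. With median-of-ratios scaling that split was 1 lower and 1 higher, and the shares of all genes at that setting are not given.

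Summed over all 25 rows, collagens took 0.615% of the counts in MP (exact 95% interval 0.612% to 0.617%) and 0.827% in CT (0.824% to 0.829%), a count ratio of 0.744 (0.740 to 0.747). The counting interval lay below 1 for 19 of the 21 measured genes, against 43.3% of all genes, above 1 for COL9A3 and across 1 for COL13A1. Such an interval narrows as reads increase, so 43.3%, over genes of all depths, is not a matched reference. Among the 19 are COL8A1 and COL14A1, which reached the minimum through CT alone. Fibrillar, COL6 and COL4 chains kept that order of share in the collagen pool in both groups on the FPKM scale. The COL6 share was smaller and the COL4 share larger in MP. Fibrillar chains made up 55.0% of the summed collagen FPKM in MP and 54.5% in CT, COL6 chains 24.5% and 26.8%, and COL4 chains 17.3% and 15.1%.

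**Figure D1:**
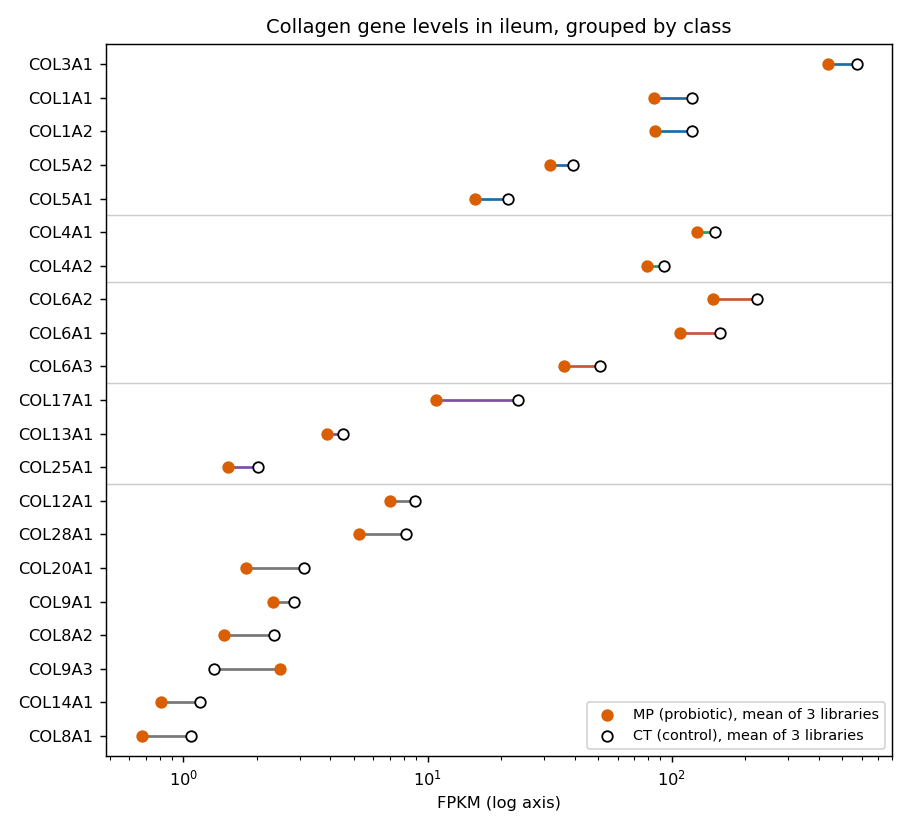
FPKM of each measured collagen gene on a log axis; filled points are the MP mean and open points the CT mean of 3 libraries each, with no error available, and grey lines part the classes (fibrillar, COL4, COL6, transmembrane, other, from the top). COL3A1 stands highest in both groups, at 437 in MP and 573 in CT, and only COL9A3 has its MP point to the right.

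Fibrillar collagens had 6 members, of which 5 were measured, and all 5 were lower in MP, with a median of -0.43. COL3A1 (ENSGALG00000035584), the single chain of type III collagen, which forms fine reticular fibres, was the most abundant collagen, at FPKM 437 in MP and 573 in CT. It ranked 162 in MP and 116 in CT among all genes by FPKM. Its count ratio was 0.758 (0.752 to 0.764). COL1A1 (ENSGALG00000041555) and COL1A2 (ENSGALG00000009641) encode the chains of type I collagen, the main tensile fibre. COL1A1 had FPKM 85.0 in MP and 122 in CT, with a count ratio of 0.698 (0.684 to 0.711). COL1A2 had 85.7 in MP and 121 in CT, with a ratio of 0.703 (0.690 to 0.717). The 2 chains of type I collagen were thus at like FPKM in each group, with a COL1A1 to COL1A2 quotient of 0.993 in MP and 1.003 in CT. Type III stood a little further above type I in MP, with a COL3A1 to COL1A1 quotient of 5.13 in MP and 4.71 in CT.

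Type V collagen sits inside type I fibres and sets their diameter. COL5A1 was at FPKM 15.6 in MP and 21.4 in CT (count ratio 0.728, 0.705 to 0.752). COL5A2, which lies next to COL3A1 in the RefSeq table of assembly GRCg7b with 0 genes between them, was at 31.7 in MP and 39.5 in CT (0.800, 0.778 to 0.824). The counting intervals of these partners did not overlap, so their ratios differed by more than counting error. COL2A1, the cartilage chain, was under the minimum, at 0.363 in MP and 0.283 in CT. Of the cartilage and bone markers, ACAN, the main cartilage proteoglycan, had FPKM 0.007 in MP and 0.017 in CT, MATN1 and BGLAP were also under 1, and SOX9, which crypt epithelium uses too, was at 11.4 in MP and 11.7 in CT.

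Basement membrane collagen had the class median nearest to 0, -0.23, with 2 of 2 members lower in MP. COL4A1 (ENSGALG00000036798) was at FPKM 127 in MP and 150 in CT, and COL4A2 (ENSGALG00000016843), its partner in the common COL4 trimer, at 79.3 in MP and 92.7 in CT. Their differences were -0.24 and -0.22, and their count ratios 0.840 (0.829 to 0.851) and 0.849 (0.834 to 0.864), with overlapping intervals. The quotient of COL4A1 to COL4A2 was 1.60 in MP and 1.62 in CT. Both genes fall in the longest of 10 classes of transcript length, whose median over all genes was -0.15. Both lay within the quartiles of that class, -0.25 and -0.05. The estimated counts of this pair were not whole numbers. Multiplied by 3 they came to 39162.8 for COL4A1 and 20830.2 for COL4A2 in MP, and to 50189.8 and 26420.2 in CT, but the pair's sum was whole within 0.001 in each group (59993 in MP and 76610 in CT). The other 23 members had whole triples within 0.002, and the loci of COL4A1 and COL4A2 overlap in the RefSeq table. The sources used here do not say how reads were shared between these 2 genes, so their separate values are less certain than their sum, whose count ratio was 0.843 (0.834 to 0.852).

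COL6 chains had the lowest class median of the 3 abundant classes, -0.54. All 3 members were lower in MP and kept one order in both groups. COL6A2 (ENSGALG00000039216) was at FPKM 147 in MP and 223 in CT, COL6A1 (ENSGALG00000005974) at 108 in MP and 157 in CT, and COL6A3 (ENSGALG00000003923), the long chain that completes the trimer, at 36.2 in MP and 51.0 in CT. The count ratios were 0.656 (0.646 to 0.666) for COL6A2, 0.685 (0.672 to 0.699) for COL6A1 and 0.707 (0.693 to 0.721) for COL6A3. The COL6A1 to COL6A2 quotient was 0.733 in MP and 0.704 in CT, and the COL6A3 to COL6A2 quotient 0.246 in MP and 0.229 in CT. Set against basement membrane collagen, COL6A2 was at 1.16 times the FPKM of COL4A1 in MP and 1.48 times in CT. Summed over chains, the COL6 count ratio was 0.677 (0.670 to 0.683) and that of COL4 0.843 (0.834 to 0.852), intervals that do not overlap. Whether birds vary by that much cannot be told from group means.

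**Figure D2:**
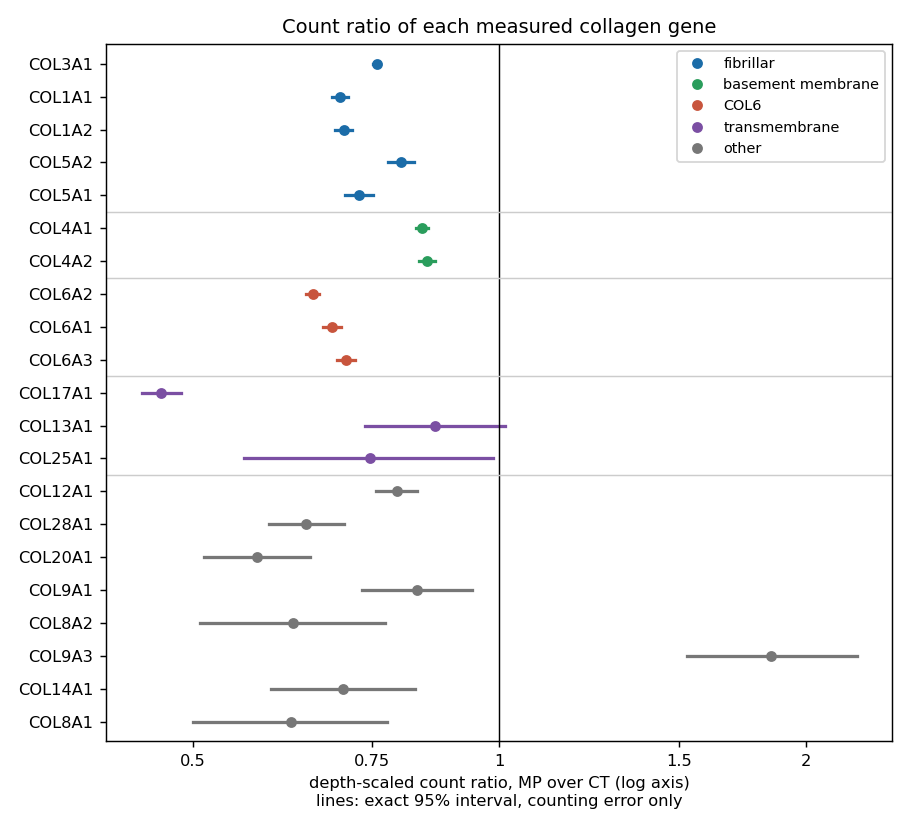
Depth-scaled count ratio, MP over CT, of each measured collagen gene on a log axis; points are ratios, lines the exact 95% intervals for counting error only, colours the classes, and the vertical line marks equality. COL4A1 and COL4A2 lie nearer to 1 than every fibrillar and COL6 chain, COL17A1 lies lowest at 0.466, and COL9A3 alone lies above 1.

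Transmembrane collagens had 4 rows, of which 3 were measured, all lower in MP. COL17A1 (ENSGALG00000029617), which anchors epithelial cells to the basement membrane in hemidesmosomes, had the lowest ratio of all members. Its FPKM was 10.9 in MP and 23.4 in CT, a difference of -1.04 and a count ratio of 0.466 (0.446 to 0.487). It was the 1 member of 21 at 2-fold or more, against 0.32% of all genes. Some known partners in the hemidesmosome, chosen after their values were seen, are set beside it. They lay nearer to equality, as most genes do when set against the lowest member. ITGA6 was at 42.6 in MP and 43.2 in CT, Itgb4 at 34.5 in MP and 30.7 in CT, the laminin chain LAMA3 at 54.8 in MP and 63.2 in CT, LAMB3 at 47.9 in MP and 42.9 in CT, and DST, a linker to keratin, at 18.4 in MP and 22.2 in CT. The basal keratin genes of stratified epithelium, KRT5 and KRT14, were at 0.120 and 0.240 in MP and at 0.067 and 0.407 in CT.

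COL13A1, a collagen of cell adhesions and of the nerve-muscle junction, was at FPKM 3.86 in MP and 4.49 in CT, and its count ratio of 0.864 could not be told from 1 by counting error (0.738 to 1.01). COL25A1, made by neurons in mice, was at 1.52 in MP and 2.02 in CT (0.746, 0.562 to 0.987). The assembled locus that also carries the name COL25A1 was at 0.167 in MP and 0.083 in CT, from 2 reads in MP and 1 in CT.

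The remaining 10 members are mostly collagens that coat fibrils or form short networks. Of these, 8 were measured, 7 lower and 1 higher in MP, with a median of -0.31. COL12A1, which bridges fibrils under tension, was at FPKM 6.99 in MP and 8.87 in CT (count ratio 0.793, 0.758 to 0.831). COL14A1, a related fibril-coating chain, was at 0.810 in MP and 1.17 in CT. COL28A1, a chain found around peripheral glia in mice, was at 5.26 in MP and 8.18 in CT (0.647, 0.594 to 0.704). The glial markers SOX10 and S100B differed less, at 2.15 and 13.8 in MP and 2.21 and 13.9 in CT.

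COL20A1, a fibril-associated chain known from the chick embryo, was at 1.81 in MP and 3.12 in CT (0.579, 0.513 to 0.652). The short-chain collagens COL8A2, at 1.47 in MP and 2.34 in CT, and COL8A1, at 0.673 in MP and 1.08 in CT, are known from vessel walls and the cornea. Their count ratios were 0.628 (0.509 to 0.773) and 0.625 (0.501 to 0.776).

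The chains of type IX collagen, a fibril-coating collagen of cartilage, went opposite ways. COL9A3 (ENSGALG00000005628) was at FPKM 2.48 in MP and 1.33 in CT, a difference of 0.58 and a count ratio of 1.85 (1.53 to 2.24), and was the one measured member that was higher in MP, against 37.7% of all genes. COL9A1 was at 2.33 in MP and 2.84 in CT (0.831, 0.734 to 0.941). The quotient of COL9A1 to COL9A3 was 0.941 in MP and 2.13 in CT. Both are low values, from 457 and 297 reads in MP and 592 and 173 in CT over 3 libraries.

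The minimum of FPKM 1 took in COL8A1 and COL14A1 through CT alone. Just outside it stood COL2A1, then COL26A1, at 0.317 in MP and 0.123 in CT. COL22A1 was at 0.017 in MP and 0.027 in CT. The 13 members with FPKM of at least 5 were all lower in MP, with a median of -0.48. Of all genes at that level, 6164 of 9913 were lower, with a median of -0.07. The 8 members below 5 in both groups had a median of -0.26, a scale on which the added 1 shrinks low values. Without it their median FPKM ratios, MP over CT, were alike, at 0.710 for the 13 and 0.723 for the 8.

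Collagen transcripts are long, and long transcripts as a class were lower in MP. Genes were ranked by their count per FPKM, which follows transcript length, and parted into 10 length classes of equal size. Of the 21 measured collagens, 17 fell in the 3 longest classes, 11 of them in the longest. In that longest class the median difference over 1283 genes was -0.15, and 82.2% were lower in MP; in the shortest class the median was 0.12. Each measured collagen except COL9A3, 20 of 21, lay below the median of its own length class. Of these 20, COL4A1, COL4A2, COL9A1 and COL13A1 still lay above the lower quartile of their class, within the usual spread. Of the genes in the longest class, 1.64% were lower by 1.5-fold or more.

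**Figure D3:**
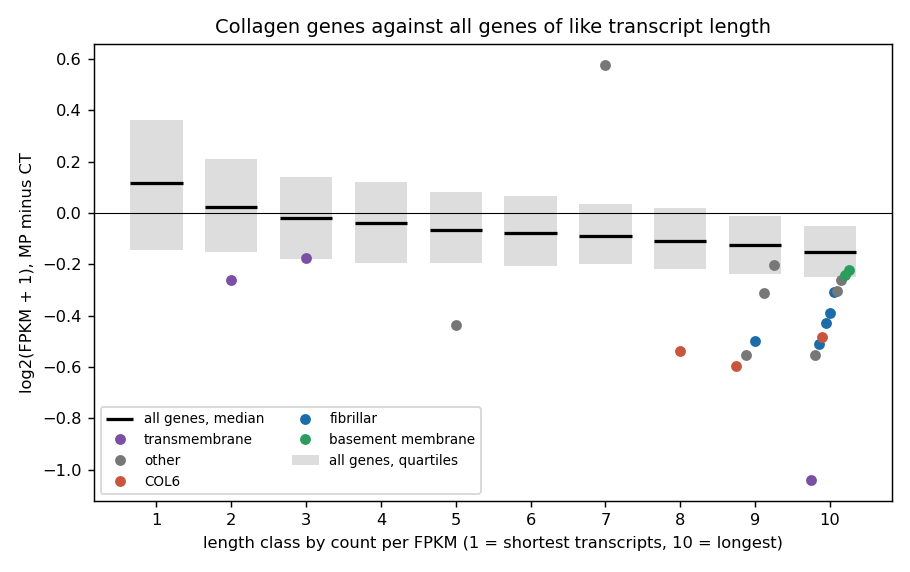
Difference in log2(FPKM + 1), MP minus CT, against the length class, 1 shortest and 10 longest, set by count per FPKM; grey bars span the quartiles and black lines give the medians of all genes in a class, and points are the 21 measured collagens coloured by kind, spread sideways for legibility. The gene median declines from 0.12 to -0.15 along the axis, and 20 points lie under the median of their length class.

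Genes that make and handle collagen are given next. Their counts are to be read against the 62.2% of all genes that were lower in MP. That share holds for the deposited scaling and is not given for the others, so counts under another scaling have no matched share. The length classes of these genes are not given. The share of genes lower ran from 37.5% in the shortest length class to 82.2% in the longest, so 62.2% is not matched for length. The part of length in these lists was not tested. A listed gene that reached FPKM 1 in a single group could only count as higher in that group. Of 27 measured rows for folding and modification in the endoplasmic reticulum, 22 were lower and 5 higher in MP, with a median of -0.16. With median-of-ratios scaling 20 were lower and the median was -0.09, where that of all genes was -0.000897. SERPINH1, the chaperone specific to collagen, had the largest difference on the list, at FPKM 75.6 in MP and 123 in CT (count ratio 0.606, 0.593 to 0.620). SEC24D, of the coat that exports procollagen, was at 12.1 in MP and 15.3 in CT, the lysyl hydroxylase gene PLOD2 at 16.2 in MP and 19.7 in CT, and FKBP14, a folding catalyst, at 4.58 in MP and 5.71 in CT. The fibrillar collagens, with a median of -0.43, lay between SERPINH1, at -0.70, and the median of the enzyme list.

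Cross-linking genes were lower for 5 of 6 (median -0.23). LOXL2, an oxidase that cross-links COL4, was at FPKM 14.0 in MP and 21.2 in CT, and LOX, which cross-links fibres, at 10.04 in MP and 14.2 in CT. LOXL1 was at 10.04 in MP and 12.2 in CT and LOXL3 at 7.22 in MP and 8.46 in CT. Procollagen processing genes were lower for 9 of 10 (median -0.38). ADAMTS2, which trims the amino end, was at 7.63 in MP and 11.3 in CT. PCOLCE, an enhancer of trimming at the other end, was at 8.22 in MP and 11.7 in CT, and the protease gene TLL2 at 3.36 in MP and 5.17 in CT. This list also holds MEP1B (125 in MP and 201 in CT), which is chiefly a digestive protease of the brush border.

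Proteoglycans and glycoproteins that bind fibrils had 20 of 22 rows lower in MP and a median of -0.36, close to the collagens. By 1.5-fold or more, 5 of the 22 were lower, against 1.97% of all genes, and 0 higher, against 2.87%. POSTN, which helps cross-linking, was at FPKM 9.10 in MP and 17.5 in CT, MFAP5, of microfibrils, at 10.6 in MP and 19.96 in CT, and TNC, a matrix protein of remodelling tissue, at 23.5 in MP and 39.1 in CT. One of 3 rows for TNXB, which spaces fibrils, was at 3.83 in MP and 7.10 in CT; another was at 1.39 in both groups, so that rows under one name differed.

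Receptors for collagen were lower for 7 of 8 (median -0.21), in a narrow range. The shared integrin subunit ITGB1 was at 168 in MP and 206 in CT, the hyaluronan receptor gene CD44, which also binds collagen, at 28.1 in MP and 33.5 in CT, the epithelial receptor kinase DDR1 at 6.17 in MP and 7.34 in CT, and ITGA1, which pairs with ITGB1 to bind collagen, at 50.1 in MP and 58.0 in CT. Partners of COL4 in the basement membrane were lower for 14 of 17 (median -0.23); median-of-ratios scaling left 12 of 17 lower. NID1, which links laminin to COL4, was at 30.7 in MP and 45.5 in CT, the laminin chain LAMA5 at 5.57 in MP and 7.95 in CT, LAMA4, a laminin of vessels, at 8.82 in MP and 12.2 in CT, and another laminin chain, LAMB1, at 37.0 in MP and 45.2 in CT.

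Genes of collagen breakdown had no common direction, with 8 of 15 lower, 7 higher and a median of -0.07, equal to that of all genes at 2 decimals. With equal FPKM totals 11 of 15 were lower (median -0.11, against -0.12 over all genes), and with median-of-ratios scaling 8 (median -0.02). MMP11, a stromelysin, was at 5.67 in MP and 8.22 in CT, and the gelatinase gene MMP2 at 79.3 in MP and 105 in CT. PRCP, a carboxypeptidase, was at 15.9 in MP and 18.2 in CT, and the lysosomal protease gene CTSB was higher, at 362 in MP and 317 in CT. The extremes were low-level genes named after their values were seen. The collagenase gene MMP1 was at 0.923 in MP and 4.15 in CT (count ratio 0.229, 0.175 to 0.296), and MMP7, a matrix protease of epithelium, at 2.46 in MP and 0.577 in CT (4.44, 3.01 to 6.70).

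Inhibitors of breakdown were lower for 5 of 5 (median -0.30). TIMP4, an inhibitor of matrix metalloproteases like TIMP2 and TIMP3, was at 7.07 in MP and 10.2 in CT, the serpin gene SERPINE2 at 49.5 in MP and 66.0 in CT, TIMP3 at 82.7 in MP and 102 in CT, and TIMP2 at 146 in MP and 168 in CT. Genes of TGF-beta signalling, the main inducer of fibrillar collagen genes, were lower for 12 of 15 (median -0.12), against 62.2% of all genes. With median-of-ratios scaling the list had 9 of 15 lower and a median of -0.05, where that of all genes was -0.000897. TGFB1 was at 46.1 in MP and 57.8 in CT, LTBP1, which stores the latent ligand, at 23.1 in MP and 31.6 in CT, and the co-receptor gene TGFBR3 at 12.4 in MP and 15.99 in CT. CYR61, a matricellular gene, was higher, at 23.6 in MP and 16.3 in CT.

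Markers of fibroblasts, smooth muscle and endothelium were lower in MP too. Their counts, and those of the other markers below, are to be read against 62.2% of all genes lower and 37.7% higher. Both shares are for the deposited scaling. All 9 measured fibroblast markers were lower in MP (median -0.37), and their summed FPKM was 469 in MP and 634 in CT, a quotient of 0.739. Of these markers, 3 (DCN, DPT and LUM) are also among the fibril-binding genes above, so the lists are not separate observations; the other 6 were lower too (median -0.43). The summed FPKM of the measured collagens was 1190 in MP and 1610 in CT, a quotient of 0.739. By class this quotient was 0.746 for fibrillar, 0.849 for COL4, 0.676 for COL6, 0.543 for transmembrane and 0.754 for other collagens. It was 0.686 for the smooth muscle markers and 0.800 for the endothelial markers. Such sums are led by the most abundant genes, so equal quotients do not mean like differences of single genes. Among the measured fibroblast markers, count ratios ran from 0.610 for VIM to 0.940 for LUM. PDGFRA, a receptor of fibroblasts, was at 19.6 in MP and 29.8 in CT, VIM at 117 in MP and 192 in CT, and LUM, a fibril proteoglycan, at 52.5 in MP and 55.8 in CT; S100A4 was under FPKM 1. All 9 smooth muscle markers were lower, although SMTN was not under median-of-ratios or upper-quartile scaling (median -0.39, summed FPKM 2541 in MP and 3705 in CT), from CNN1 at 135 in MP and 227 in CT to SMTN at 73.4 in MP and 73.7 in CT. All 8 endothelial markers were lower (median -0.30, summed FPKM 126 in MP and 157 in CT).

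Epithelial markers were higher for 8 of 12 rows, against 37.7% of all genes (median 0.13, summed FPKM 2976 in MP and 2649 in CT). Over the other scalings between 2 and 5 of 12 were lower. KRT20, of mature enterocytes, was at 564 in MP and 414 in CT and VIL1, of microvilli, at 405 in MP and 325 in CT, while the adhesion gene CDH1 was at 362 in both. CDX1, a transcription factor of intestinal epithelium, was at 123 in MP and 109 in CT. EPCAM was near equality, at 1032 in MP and 1016 in CT. Lower in MP were TJP3, at 32.9 in MP and 35.3 in CT, and KRT8, at 30.95 in MP and 31.6 in CT. KRT19, a low value, was at 0.817 in MP and 1.29 in CT. Fat cell markers were lower for 3 of 4, against 62.2% of all genes. FABP4 was at 95.3 in MP and 161 in CT, and PLIN1 at 24.9 in MP and 42.4 in CT. ADIPOQ was at 67.6 in MP and 82.5 in CT, whereas CFD was at 1402 in MP and 1248 in CT. The striated muscle gene ACTA1 was at 17.4 in MP and 37.0 in CT and TNNT3 at 1.22 in MP and 1.34 in CT. The part of tissue make-up in the collagen differences was not tested.

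**Figure D4:**
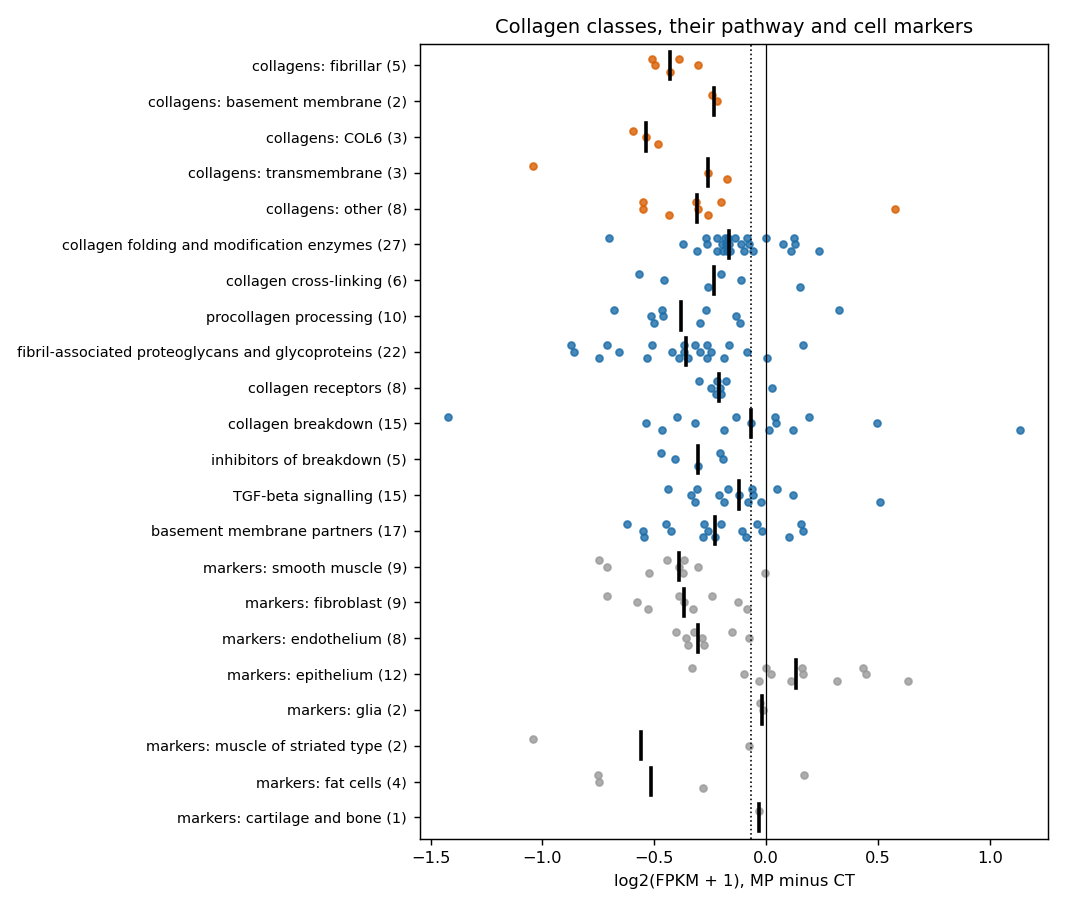
Difference in log2(FPKM + 1), MP minus CT, of each measured gene in the collagen classes (orange), the lists of the collagen pathway (blue) and the cell markers (grey), with the number of genes in brackets; black ticks are list medians, the solid line marks 0 and the dotted line the median of all genes, -0.07. Medians of COL6, fibrillar collagens, procollagen processing, and smooth muscle, fibroblast and fat cell markers lie between -0.54 and -0.37. That of striated muscle markers lies at -0.56, that of collagen breakdown at -0.07 and that of epithelial markers at 0.13.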

How the data were processed

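Per the file headers, the authors deposited 1 FPKM value and 1 estimated count per gene and group. The third decimal of 100% of both was 0, 3 or 7, the pattern that averaging 3 libraries leaves. Per the submitters' processing notes, the tools were HISAT2, StringTie 1.3.1, Bowtie2, DESeq2 and fastp 0.18.0, with no role given. The sources used here give neither genome build nor strand handling, and no coordinates or sequences are printed. Per the labels' protocols, RNA was extracted with TRIzol and the kit is one for small RNA. Another 4 value columns belong to no sample of this series and were not used.

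The planned count test needs values per library and could not be run. A gene counts as measured from an FPKM of 1 upward in MP or CT. Such members may all be named; from each pathway list, up to 4 genes with the largest difference at FPKM of at least 5 were named, and any marker. Partners of COL17A1 and other genes outside this rule (KRT5, KRT14, ITGA6, Itgb4, LAMA3, LAMB3, DST, MMP1, MMP7) were chosen after their values were seen. Members and lists were chosen with earlier results of these data known. For count ratios, mean counts were multiplied by 3, rounded and divided by the depth ratio of 0.929, with Clopper-Pearson intervals (Python 3.11.15, scipy 1.17.1), tested on simulated data; reads without molecular identifiers are not independent molecules. All 25 rows had their symbol in the RefSeq table. The values of some single genes are left out.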

Additional observations from a re-analysis of the deposited data

How the results depend on the processing

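No paired analysis was possible because each column is a group mean. Leaving out libraries, the replicate block, edgeR and DESeq2 need values per library and were not run. The spread between birds is unknown, and depth limits the rows with few reads, such as COL22A1 with 4 reads in MP and 7 in CT. The number of measured collagens lower in MP was 20 of 21 under each of the 4 other scalings. The share of all genes lower under those scalings is not given. A pseudocount cannot alter the direction of a difference, so both other pseudocounts had to give the same number. It was 13 of 13 at a minimum FPKM of 5, where 6164 of 9913 genes were lower. With no filter on low values it was 21 of 25, where COL2A1, COL26A1 and the assembled COL25A1 locus were higher in MP. The median of the collagens ranged from -0.48 to -0.31 over all alternatives, against -0.39. No scaling shifted the all-gene median by more than 0.07.

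The counts at 1.5-fold, 2 lower and 0 higher, depended on the settings. They were 1 lower and 1 higher with median-of-ratios and with upper-quartile scaling, 5 lower with equal FPKM totals, 4 lower and 1 higher with library totals (CPM) and with a pseudocount of 0.5, and 6 lower and 1 higher with a pseudocount of 0.1. At 2-fold 1 was lower, against 0.32% of all genes. The shares of all genes under the other scalings and pseudocounts are not given, so those counts have no reference beside them. Class medians are given where they moved by more than 0.126, which is 0.5 of the members' interquartile range. The median of the collagens outside the 4 named classes was -0.48 with library totals and -0.54 with a pseudocount of 0.1. That of transmembrane collagens was -0.39 with a pseudocount of 0.1 and -1.04 at a minimum FPKM of 5, where COL17A1 alone is left. With median-of-ratios scaling the median of epithelial markers was 0.21, and with equal FPKM totals 0.0754. Glial markers turned to 0.0412 and 0.0115, and the 1 measured gene for cartilage and bone to 0.0387 and 0.00501, with median-of-ratios and upper-quartile scaling. A smaller pseudocount enlarges differences of low genes by construction; otherwise the cause was not tested. Of 126 differences of single collagens recomputed with another scaling or pseudocount, 94 moved by less than the counting error, 32 by more, and 0 changed sign. Only the scalings could have changed a sign, since a pseudocount cannot.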

Other observations

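Another 7 Ensembl genes carry no symbol in the table but are described there as collagen chains. They were examined after their values had been seen. Assembled loci with such descriptions are not among them and are given last. Of these, 5 had FPKM of at least 1, with 3 lower and 2 higher in MP and a median of -0.02, against -0.39 for the 21 collagens with a symbol. The type XVI alpha 1 chain, a fibril-coating collagen, was higher, at FPKM 6.55 in MP and 5.27 in CT (count ratio 1.20, counting interval 1.10 to 1.297). The type XXIV and type XXVII alpha 1 chains, fibrillar collagens of a separate branch, were at 3.99 and 1.87 in MP and at 3.79 and 1.90 in CT, with ratios of 1.04 (0.956 to 1.14) and 0.979 (0.880 to 1.09). These differ from the 5 measured fibrillar members above, whose ratios lay between 0.698 and 0.800. The type XV alpha 1 chain, of basement membrane zones, was lower, at 2.60 in MP and 3.26 in CT (0.805, 0.708 to 0.915), and the transmembrane type XXIII alpha 1 chain was at 3.43 in MP and 3.86 in CT (0.893, 0.749 to 1.06). The type IV alpha 4 chain was at 0.760 in MP and 0.757 in CT, and the type X alpha 1 chain at 0.070 in MP and 0.073 in CT. With the 5 measured chains added, 23 of 26 collagens were lower in MP and the median was -0.31. Without COL4A1 and COL4A2, whose counts were not whole, 18 of 19 were lower and the median was -0.43.

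Assembled loci described as collagen alpha-1(I) chain, isoform X1, did not follow COL1A1. One was at FPKM 32.0 in MP and 23.4 in CT, and the other, which the table names Bad, at 10.9 in MP and 8.92 in CT. Loci described as collagen alpha-1(I) chain-like were lower in MP. One was at 5.85 in MP and 6.15 in CT, and another at 0.550 in MP and 0.663 in CT. The assembled locus described as collagen type XI alpha 2, partial, carries no symbol and is not in the counts above. It was higher in MP, at 1.16 in MP and 0.537 in CT, a difference of 0.49. Whether any of these loci hold collagen sequence was not tested.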
